A study of Mus musculus with 12 samples.

Results

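The immediate early transcription factors described here are 8 genes, Fos, Fosb, Junb, Egr1, Egr2, Nr4a1, Ier2 and Klf4, measured by 10 probes on 12 mouse brain arrays. They were chosen by name, with earlier results of these data known. Every probe whose accession mapped to these symbols was taken, out of 41174 gene probes and 33390 genes and transcripts in all. Junb and Ier2 had 2 probes each, and all 10 probes were well above background on 12 of 12 arrays, so every member passed the filter that left 24860 genes and transcripts for testing.

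Each array held RNA of 1 of 6 brain regions, pooled from 5 male mice of 12 weeks that either lacked the inflammatory cytokine IL-18 (genotype label IL-18 KO, written KO) or were wild type (WT), with 1 WT and 1 KO array for each region. The strain label is C57BL/6 for both genotypes. The design text describes F2 littermates bred from IL-18-/- and C57BL/6J mice. Both genotypes alike were weaned at 6 weeks, killed at 14:00 under diethyl ether and perfused with cold saline before the brain was cut into slices, so no array shows these genes in the absence of anaesthesia and perfusion. The mice lacked the gene from conception and in every cell. Whether the same mice gave the pools of all 6 regions is not stated in the labels.

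Immediate early genes are transcribed within minutes of a stimulus, without the need for new protein synthesis. In neurons, calcium entry through synaptic receptors and voltage-gated channels activates kinases that act on serum response factor and CREB, which are already bound at the promoters of these genes. The proteins then bind DNA and switch on a later set of genes, and their transcripts are short-lived, so in brain they are widely read as a trace of recent neuronal activity.

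The members fall into 4 kinds of DNA-binding protein and 1 further nuclear protein. Fos, Fosb and Junb are leucine zipper proteins, and a Fos protein pairs with a Jun protein to form the factor AP-1. Egr1 and Egr2 are zinc finger factors that bind GC-rich sites. Nr4a1, also called Nur77, is an orphan nuclear receptor. Klf4 is a zinc finger factor of the Krüppel-like family. Ier2 is a small nuclear protein induced by growth factors and by neuronal activity.

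Promoter windows are shown to mark short elements of the activity response in them. RefSeq (assembly GRCm38.p6) gave a window of 300 bases, from 250 before to 50 after the annotated start, for 6 of the 8 genes. The windows of Fos (chr12:85473640-85473939, plus strand), Egr2 (chr10:67537619-67537918, plus strand), Nr4a1 (chr15:101266596-101266895, plus strand), Junb (chr8:84978699-84978998, minus strand) and Fosb (chr7:19309996-19310295, minus strand) are printed from 5′ to 3′ on the strand of the gene. Egr2 has 5 annotated starts in that table and the middle one by position is shown. Capitals mark matches on either strand to the core of the cyclic AMP response element (TGACG, or CGTCA on the other strand), the EGR site (GCGNGGGCG), the CArG box bound by serum response factor, and the TATA box (TATAAA, searched on both strands).
Fos: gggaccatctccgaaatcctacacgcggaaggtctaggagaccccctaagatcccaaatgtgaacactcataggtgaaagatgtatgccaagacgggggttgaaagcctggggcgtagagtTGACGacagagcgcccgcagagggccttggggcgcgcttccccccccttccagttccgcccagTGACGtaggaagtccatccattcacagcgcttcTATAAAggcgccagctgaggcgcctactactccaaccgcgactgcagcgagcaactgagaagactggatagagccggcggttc
Egr2: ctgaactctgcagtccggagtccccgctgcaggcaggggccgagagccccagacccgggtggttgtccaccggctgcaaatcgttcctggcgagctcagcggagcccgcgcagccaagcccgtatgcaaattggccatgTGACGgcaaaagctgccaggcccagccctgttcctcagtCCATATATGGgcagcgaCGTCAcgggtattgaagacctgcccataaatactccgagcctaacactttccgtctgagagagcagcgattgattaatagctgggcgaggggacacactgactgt
Nr4a1: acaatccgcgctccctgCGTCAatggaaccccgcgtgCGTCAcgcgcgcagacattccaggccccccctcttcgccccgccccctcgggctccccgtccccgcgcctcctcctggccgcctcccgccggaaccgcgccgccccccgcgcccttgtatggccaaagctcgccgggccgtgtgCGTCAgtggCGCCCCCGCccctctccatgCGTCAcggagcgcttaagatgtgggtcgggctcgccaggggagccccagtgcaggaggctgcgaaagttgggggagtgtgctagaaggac
Junb: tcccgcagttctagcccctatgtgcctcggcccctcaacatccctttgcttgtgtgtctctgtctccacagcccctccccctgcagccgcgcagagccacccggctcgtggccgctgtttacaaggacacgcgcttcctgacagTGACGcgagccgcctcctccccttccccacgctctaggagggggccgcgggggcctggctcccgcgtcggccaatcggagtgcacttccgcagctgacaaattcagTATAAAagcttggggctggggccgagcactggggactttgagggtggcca
Fosb: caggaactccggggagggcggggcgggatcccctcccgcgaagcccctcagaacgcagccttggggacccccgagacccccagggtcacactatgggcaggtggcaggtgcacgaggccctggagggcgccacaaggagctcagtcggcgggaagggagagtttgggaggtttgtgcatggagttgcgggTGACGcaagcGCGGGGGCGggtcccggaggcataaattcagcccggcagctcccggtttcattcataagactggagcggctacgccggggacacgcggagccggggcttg

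The core TGACG was present in 6 of 6 member windows, counting Klf4 (chr4:55532426-55532725, minus strand), against 20.8% of 32851 promoter windows of the same length. The member counts here take 1 start per gene, while the shares over all windows count every annotated start. Among the Egr2 starts not shown, the windows chr10:67535249-67535548 and chr10:67537316-67537615 held 0 matches to the core. In Fos the first bases of the core lay at -129 and -66 relative to the annotated start, and in Nr4a1 there were 4 matches, at -233, -213, -69 and -40. The EGR site was found in 3 windows, those of Fosb, Nr4a1 and Klf4, against 5.55% of all windows. A CArG box was found in Egr2 alone among the 6, at -72, against 1.63% of all windows. TATAAA was found in Fos at -33 and in Junb at 0, against 13.6% of all windows. The full palindrome TGACGTCA, which contains the core, was in 0 of the 6 windows (1.79% of all) and the AP-1 site TGANTCA in 0 (7.81% of all). These matches describe the letters of the windows and not binding.

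Values below are log2 processed intensities from which the 75th percentile of that array was subtracted, called levels, or differences between such levels. A level is that of a probe and is compared between arrays only, never between genes. The 75th percentile itself ran from 208.3 on the striatum WT array to 767.9 on the amygdala KO array, and 60.8% to 81.3% of spots were well above background. The targeted gene itself, Il18, had a KO minus WT estimate of -4.36 over the regions (limma, adjusted p = 0.000615) and was lower in each of the 6, between -5.10 in amygdala and -3.73 in hippocampus. Each region had its own slide, on which WT always took the first place and KO the third; genotype and place cannot be told apart.

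The 2 arrays labelled amygdala stood apart. On the amygdala WT array the mean level of 11 hypothalamus markers was 2.67, against 2.48 on hypothalamus WT, 2.74 on hypothalamus KO and -1.40 on amygdala KO. The other lists of region markers that were fixed for olfactory bulb, prefrontal cortex, striatum and hippocampus were highest on the 2 arrays of their own region, and the amygdala list was highest on amygdala KO (1.68), with hypothalamus WT (1.45) and amygdala WT (1.42) next. Estimates over regions, list medians and correlations are therefore given with and without them, and values of single arrays as measured. In the amygdala pair a difference of genotype and a difference of tissue cannot be told apart. Amygdala, hippocampus and hypothalamus were cut from the same slice, 1.5 to 2.5 mm posterior to bregma.

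The members differed by region to differing degrees. The olfactory bulb was the highest region for 6 of the 8, not all beyond the spread of the 2 arrays. These were Fos, Fosb, Egr1, Egr2, Nr4a1, and Ier2 by the brighter of its 2 probes. The striatum was highest for Junb and Klf4. In limma each region was compared with the mean of the other 5. There, 12 of 48 contrasts of the members passed an adjusted p of 0.05 with a log2 difference of at least 1. Of these, 7 were higher and 5 lower, and none was for Fosb, Junb or Klf4. The plot of levels on the 12 arrays shows these orders gene by gene. Because a region was also a slide, the 2 cannot be told apart. These are bulk tissue pieces, in which fewer cells of a type and less RNA per cell cannot be told apart.

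**Figure D1:**
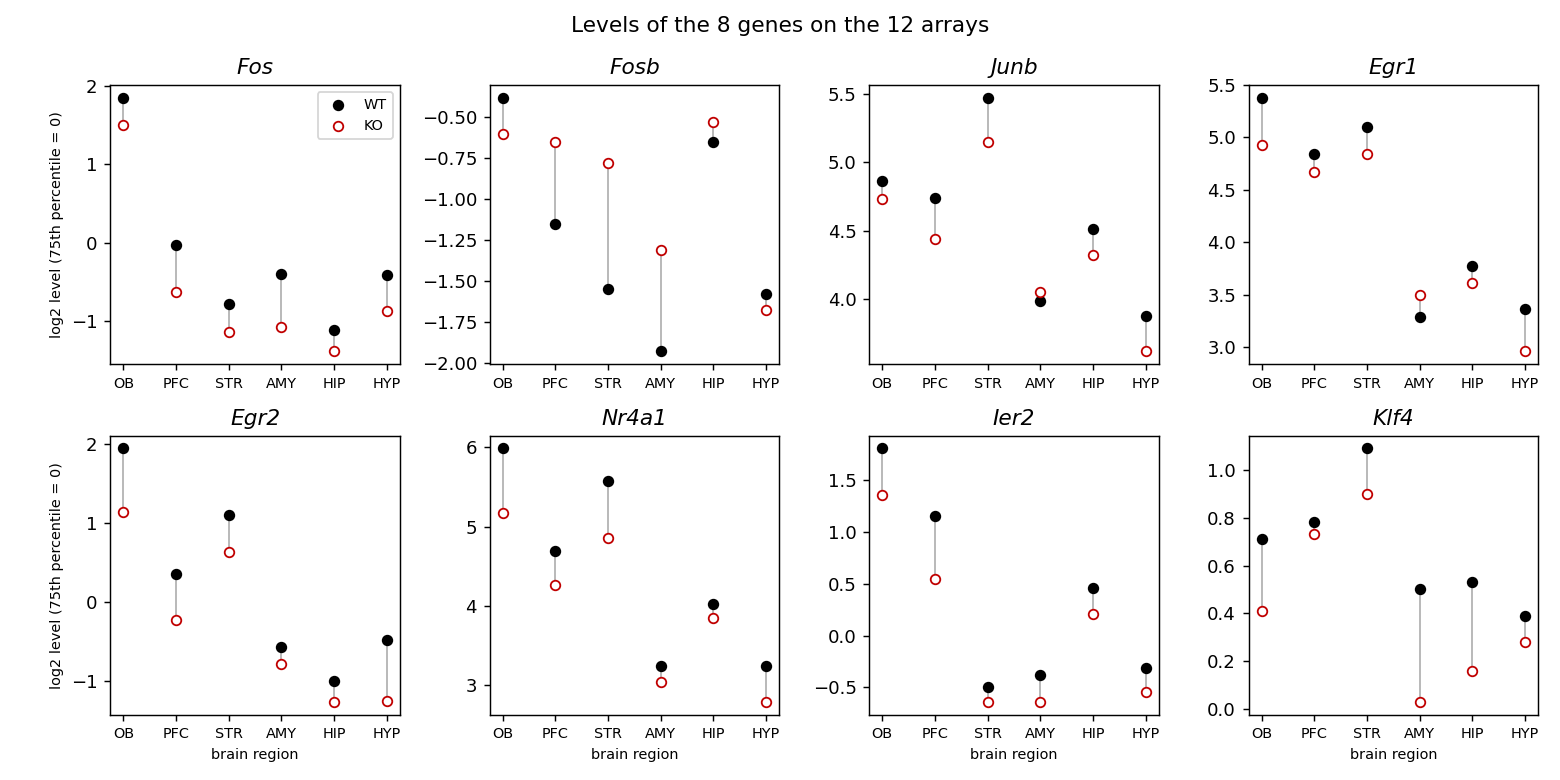
Log2 level of each gene (y axis, log2 processed intensity minus the array's 75th percentile; each panel has its own scale) on the WT arrays (filled points) and KO arrays (open points) of olfactory bulb (OB), prefrontal cortex (PFC), striatum (STR), amygdala (AMY), hippocampus (HIP) and hypothalamus (HYP), 1 array per point. Fos reaches 1.85 in the olfactory bulb and lies at or under -0.03 on the arrays of the other regions, and the open point lies under the filled point in all 6 regions for Fos, Egr2, Nr4a1, Ier2 and Klf4.

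Fos, the first member of its family of AP-1 proteins, stood at 1.85 (WT) and 1.50 (KO) in olfactory bulb, -0.03 and -0.62 in prefrontal cortex, and -0.78 and -1.14 in striatum. It stood at -0.39 and -1.07 in amygdala, -1.11 and -1.38 in hippocampus, and -0.41 and -0.87 in hypothalamus. The 2 olfactory bulb arrays were higher than every other array, and the remaining 5 regions formed an order in which each overlapped the next, ending with the hippocampus. The olfactory bulb was 2.45 ± 0.091 (SE) above the mean of the other regions (limma, adjusted p = 5.98e-06) and the hippocampus 1.05 units below it, at -1.05 ± 0.091 (adjusted p = 0.000384). Without the amygdala arrays these were 2.46 ± 0.078 and -1.18 ± 0.078. From the lowest to the highest array, Fos spanned 9.34-fold.

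The truncated form of the Fosb protein, ΔFosB, accumulates with repeated stimulation. Fosb stood at -0.38 (WT) and -0.60 (KO) in olfactory bulb, -1.15 and -0.65 in prefrontal cortex, and -1.55 and -0.78 in striatum. It stood at -1.93 and -1.31 in amygdala, -0.65 and -0.53 in hippocampus, and -1.58 and -1.68 in hypothalamus. Every region overlapped its neighbour in the order, from olfactory bulb down to hypothalamus, and no region passed the 1-unit rule for this gene. Whether the probe reads 1 or both of the 2 Fosb forms was not examined.

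Junb, which pairs with Fos proteins in AP-1, stood at 5.47 (WT) and 5.15 (KO) in striatum, 4.86 and 4.73 in olfactory bulb, and 4.74 and 4.44 in prefrontal cortex. It stood at 4.51 and 4.32 in hippocampus, 3.99 and 4.05 in amygdala, and 3.88 and 3.62 in hypothalamus. The striatum arrays lay above all others, and the amygdala and hypothalamus arrays lay below all others without overlapping each other. The striatum difference of 0.99 ± 0.085 fell just short of the 1-unit rule (limma, adjusted p = 7.72e-05). Without the amygdala arrays, the hypothalamus passed it, at -1.03 ± 0.064 (adjusted p = 0.000368), but did not when signals were corrected by normexp (-0.96), scaled by the median (-0.89), quantile-normalized (-0.97) or averaged over the 2 Junb probes (-0.87).

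Egr1, also known as Zif268, stood at 5.38 (WT) and 4.93 (KO) in olfactory bulb, 5.10 and 4.84 in striatum, and 4.84 and 4.67 in prefrontal cortex. It stood at 3.77 and 3.61 in hippocampus, 3.29 and 3.50 in amygdala, and 3.36 and 2.96 in hypothalamus. The levels split into 2 sets of regions that did not overlap, with olfactory bulb, striatum and prefrontal cortex at or above 4.67 and the other 3 regions at or below 3.77. The olfactory bulb was 1.16 ± 0.12 above the mean of the other regions (limma, adjusted p = 0.000309) and the hypothalamus below it, at -1.23 ± 0.12 (adjusted p = 0.00137). Without the amygdala arrays these were 1.01 ± 0.080 and -1.48 ± 0.080, for Egr1 still past the rule.

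Egr2, also known as Krox20, stood at 1.95 (WT) and 1.14 (KO) in olfactory bulb, 1.11 and 0.64 in striatum, and 0.36 and -0.22 in prefrontal cortex. It stood at -0.57 and -0.78 in amygdala, -0.47 and -1.25 in hypothalamus, and -0.99 and -1.26 in hippocampus. The first 3 regions did not overlap each other or the rest, while amygdala, hypothalamus and hippocampus overlapped in sequence. Olfactory bulb (1.89 ± 0.13, adjusted p = 5.4e-05) and striatum (1.09 ± 0.13, adjusted p = 0.000324) were higher and hippocampus lower (-1.32 ± 0.13, adjusted p = 0.000624) in limma. The striatum call was lost without the amygdala arrays (0.97 ± 0.12), under normexp correction (0.88) and under median scaling (0.96). Without those arrays Egr2 stood at 1.81 ± 0.12 for olfactory bulb and -1.53 ± 0.12 for hippocampus, and the hypothalamus passed, at -1.20 ± 0.12.

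Nr4a1, the nuclear receptor, stood at 5.99 (WT) and 5.17 (KO) in olfactory bulb, 5.58 and 4.86 in striatum, and 4.69 and 4.26 in prefrontal cortex. It stood at 4.02 and 3.84 in hippocampus, 3.23 and 3.03 in amygdala, and 3.23 and 2.78 in hypothalamus. Olfactory bulb and striatum overlapped, as did amygdala and hypothalamus, and the prefrontal cortex and hippocampus stood between them without overlap. Olfactory bulb (1.63 ± 0.13, adjusted p = 0.000109) and striatum (1.20 ± 0.13, adjusted p = 0.00023) were higher, and amygdala (-1.31 ± 0.13, adjusted p = 0.00105) and hypothalamus (-1.47 ± 0.13, adjusted p = 0.00115) lower, in limma. The striatum call was lost without the amygdala arrays (0.97 ± 0.13) and with quantile normalization (0.87). Without those arrays Nr4a1 stood at 1.43 ± 0.13 for olfactory bulb and -1.80 ± 0.13 for hypothalamus.

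Ier2 stood at 1.81 (WT) and 1.36 (KO) in olfactory bulb, 1.16 and 0.55 in prefrontal cortex, and 0.46 and 0.21 in hippocampus. It stood at -0.31 and -0.54 in hypothalamus, -0.38 and -0.64 in amygdala, and -0.50 and -0.64 in striatum. The first 3 regions did not overlap, and the last 3 did. The olfactory bulb was 1.65 ± 0.097 above the mean of the other regions (limma, adjusted p = 2.91e-05). This value rests on the brighter of the 2 Ier2 probes. The dimmer probe lay between -3.43 and -1.46 and was highest in the striatum. In olfactory bulb the dimmer probe stood at -3.07 (WT) and -2.82 (KO), so it did not put this region highest. Averaged over both probes, the olfactory bulb difference was 0.62. Without the amygdala arrays, Ier2 stood at 1.54 ± 0.10 for olfactory bulb, and it was lower in striatum (-1.16 ± 0.10, adjusted p = 0.000236) by the brighter probe and at 0.00 by the mean of the 2 probes.

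Klf4 varied least across the arrays, by 2.08-fold from lowest to highest, and passed the region rule nowhere. It stood at 1.09 (WT) and 0.90 (KO) in striatum, 0.78 and 0.73 in prefrontal cortex, and 0.71 and 0.41 in olfactory bulb. It stood at 0.53 and 0.16 in hippocampus, 0.39 and 0.28 in hypothalamus, and 0.50 and 0.03 in amygdala. Striatum and prefrontal cortex stood above the other 4 regions, which overlapped in sequence.

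Set against all genes tested, the share of genes called higher in the olfactory bulb was 7.06%. Beside it stood 5 of the 8 members (Fos, Egr1, Egr2, Nr4a1, and Ier2 by its brighter probe). For the striatum 13.1% of all genes were called higher, beside 2 members, and its 2 arrays were the dimmest. The amygdala call (Nr4a1) stood beside 5.39% of genes lower there, the 2 hippocampus calls (Fos and Egr2) beside 2.39%, and the 2 hypothalamus calls (Egr1 and Nr4a1) beside 1.7%. Without both striatum arrays 11 contrasts passed, and these held the 10 calls made in the other regions. Without both amygdala arrays, 12 of 40 contrasts passed, 5 of them higher and 7 lower. The 5 higher ones were those of the same 5 genes in the olfactory bulb (6.25% of all genes), and both striatum calls, of Egr2 and Nr4a1, were lost. The lower ones were 4 genes in the hypothalamus (Junb, Egr1, Egr2 and Nr4a1; 3.87% of all genes), Fos and Egr2 in the hippocampus (2.79%), and Ier2 in the striatum (9.86%).

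The next comparison asked whether the members differed between KO and WT brains. Fos, Egr2, Nr4a1, Ier2 and Klf4 were lower on the KO array in all 6 regions as scaled here, and Junb and Egr1 were lower in all regions except the amygdala, while Fosb was higher in 4 of 6. Under median scaling Egr2 and Nr4a1 stood at 0.01 in the amygdala and Klf4 at 0.06 in the prefrontal cortex, which left Fos and Ier2 lower in all 6. With normexp correction or quantile normalization Junb was lower in the amygdala too. Of all genes tested, 8.75% were lower in all 6 regions. The amygdala pair is counted in these 6, although genotype and tissue cannot be told apart in it. No member passed the adjusted threshold across regions, and no within-region difference reached 2-fold (of all genes, 1.59% did in hippocampus, 1.45% in striatum, 0.768% in olfactory bulb, 0.938% in hypothalamus, 4.25% in prefrontal cortex and 6.79% in amygdala).

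Fos differed by -0.35 in olfactory bulb, by -0.36 in striatum and by -0.59 in prefrontal cortex, and by -0.27 in hippocampus, -0.46 in hypothalamus and -0.68 in amygdala. Over all regions the estimate was -0.45 ± 0.068 (SE; KO at 0.732 of WT; limma with region as a block, adjusted p = 0.0931), and 66th was its rank by p among 24860 genes and transcripts. Its probe was printed 10 times on each array. The highest KO spot lay below the lowest WT spot in 6 of 6 regions, for example -0.55 against -0.16 in prefrontal cortex and -1.23 against -1.19 in hippocampus. This spread of spots measures the array and not the mice.

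Egr2 differed by -0.81 in olfactory bulb, by -0.47 in striatum and by -0.57 in prefrontal cortex, and by -0.27 in hippocampus, -0.78 in hypothalamus and -0.20 in amygdala. Its estimate was the lowest of the 8, at -0.52 ± 0.097 (KO at 0.698 of WT; limma, adjusted p = 0.098). This probe too was printed 10 times, and the KO spots lay below the WT spots without overlap in 4 of 6 regions, with overlap in amygdala and hippocampus.

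Nr4a1 differed by -0.82 in olfactory bulb, by -0.72 in striatum and by -0.42 in prefrontal cortex, and by -0.18 in hippocampus, -0.45 in hypothalamus and -0.21 in amygdala, with an estimate of -0.47 ± 0.099 (KO at 0.724 of WT; limma, adjusted p = 0.101). Ier2 differed by -0.44, -0.14, -0.61, -0.24, -0.23 and -0.25 in the same order of regions, with an estimate of -0.32 ± 0.072 (adjusted p = 0.105). The dimmer Ier2 probe was higher in KO in olfactory bulb (0.25) and hypothalamus (0.10) and lower in the other 4 regions. Klf4 differed by -0.30, -0.20, -0.06, -0.36, -0.11 and -0.46, with an estimate of -0.25 ± 0.067 (adjusted p = 0.118). The scanner software's error of a single within-region difference was 0.20 to 0.22 for the members. Values nearer to 0 than that were smaller than 1 such error, and values somewhat larger may still be measurement error. For Fos and Egr2 it is the error of single spots, not of the mean of their repeated spots.

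Junb differed by -0.14 in olfactory bulb, by -0.32 in striatum and by -0.30 in prefrontal cortex, and by -0.19 in hippocampus, -0.26 in hypothalamus and 0.06 in amygdala, with an estimate of -0.19 ± 0.063 (limma, adjusted p = 0.151). The other Junb probe had the same direction as the first in all 6 regions, between -0.29 and 0.13. Egr1 differed by -0.45, -0.26, -0.17, -0.16, -0.39 and 0.20 in the same order, with an estimate of -0.21 ± 0.09 (adjusted p = 0.225). Fosb went the other way in most regions, at 0.77 in striatum, 0.62 in amygdala, 0.49 in prefrontal cortex and 0.13 in hippocampus, with -0.09 in hypothalamus and -0.22 in olfactory bulb. Its estimate of 0.28 ± 0.14 had an interval from -0.06 to 0.62 (adjusted p = 0.285).

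**Figure D2:**
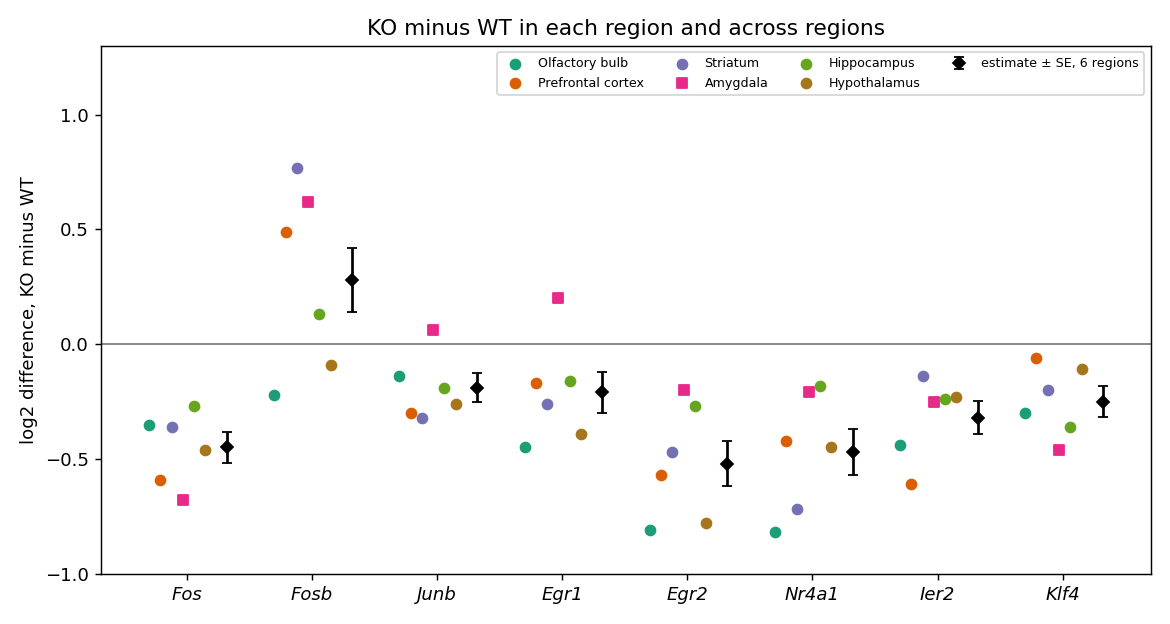
Log2 difference, KO minus WT (y axis), for each gene (x axis) in each region (coloured points, 1 array pair each; squares are the amygdala pair) and the limma estimate over the 6 regions with its standard error (black diamond). The estimates lie between -0.52 (Egr2) and -0.19 (Junb) for 7 genes and at 0.28 for Fosb, and the amygdala squares of Egr1 (0.20) and Junb (0.06, below 0 with normexp or quantile normalization) lie above 0.

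Read against all genes tested, 0 of 8 members passed the adjusted threshold, beside 0.0402% of all genes (10 of 24860, of which 4 were higher and 6 lower). At an unadjusted p under 0.05, 6 of the 8 members were lower (Fos, Junb, Egr2, Nr4a1, Ier2 and Klf4), beside 13.3% of all genes, and 0 were higher, beside 10% of all genes. The median estimate of the members was -0.28, beside -0.023 over all genes, and 7 of 8 were lower, beside 55.8% of all genes. The 8 genes were chosen with earlier results of these data known, so these shares are descriptions and no test of the set. Because pools of different regions may share mice, each p describes how evenly a difference ran over the regions and is too small as evidence on genotype.

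Other processing moved some members past the threshold. With normexp correction Fos (adjusted p = 0.0421), Egr2 (0.0422), Nr4a1 (0.0429) and Ier2 (0.0433) passed in limma, where 719 of all genes did. With a variance trend and robust fit Fos passed (adjusted p = 0.044), where 161 of all genes did. From the authors' deposited table of KO over WT ratios, Fos (adjusted p = 0.0462) and Egr2 (0.0498) passed, where 258 of all genes did. Within the 2 regions scanned on the first day, the median of the members was -0.27, and within the 4 scanned on the second day it was also -0.27.

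Without the amygdala pair, the estimates were -0.40 ± 0.062 for Fos, -0.58 ± 0.093 for Egr2, -0.52 ± 0.10 for Nr4a1, -0.33 ± 0.082 for Ier2, -0.29 ± 0.064 for Egr1, -0.24 ± 0.051 for Junb, -0.21 ± 0.064 for Klf4 and 0.21 ± 0.16 for Fosb (SE, 5 regions). None passed in limma (lowest adjusted p = 0.192), beside 0.00402% of all genes, which was Il18 alone. At an unadjusted p under 0.05, 7 members were lower, beside 10.2% of all genes. The same 7, all but Fosb, were lower in all 5 regions, beside 11% of all genes, and under median scaling 6 were, with Klf4 the exception.

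The amygdala pair gave the smallest median difference of the 8 genes, -0.20, followed by hippocampus (-0.22), striatum (-0.29), hypothalamus (-0.32), prefrontal cortex (-0.36) and olfactory bulb (-0.40). Under median scaling the amygdala median was 0.01, with 3 of 8 lower, and the median of all genes there moved from -0.06 to 0.16. The difference between the amygdala pair and the other 5 pairs was tested directly and no member passed, beside 0.266% of all genes. The value closest to the threshold was that of Egr1, at 0.49 ± 0.16 (limma, adjusted p = 0.272), followed by Junb at 0.30 ± 0.13 (adjusted p = 0.371).

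On the arrays themselves, amygdala WT and hypothalamus WT were close for these genes. Fos stood at -0.39 and -0.41, Nr4a1 at 3.23 on both, and Egr1 at 3.29 and 3.36. The median absolute difference of the 8 genes between these 2 arrays was 0.09 (0.11 over all genes), and the largest was 0.34, for Fosb. Between amygdala KO and hypothalamus KO the median was 0.31 (0.25 over all genes) and the largest 0.53, for Egr1. Between hypothalamus KO and WT the median was 0.32, beside 0.11 over all genes. Between amygdala KO and WT it was 0.23, beside 0.26 over all genes.

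**Figure D3:**
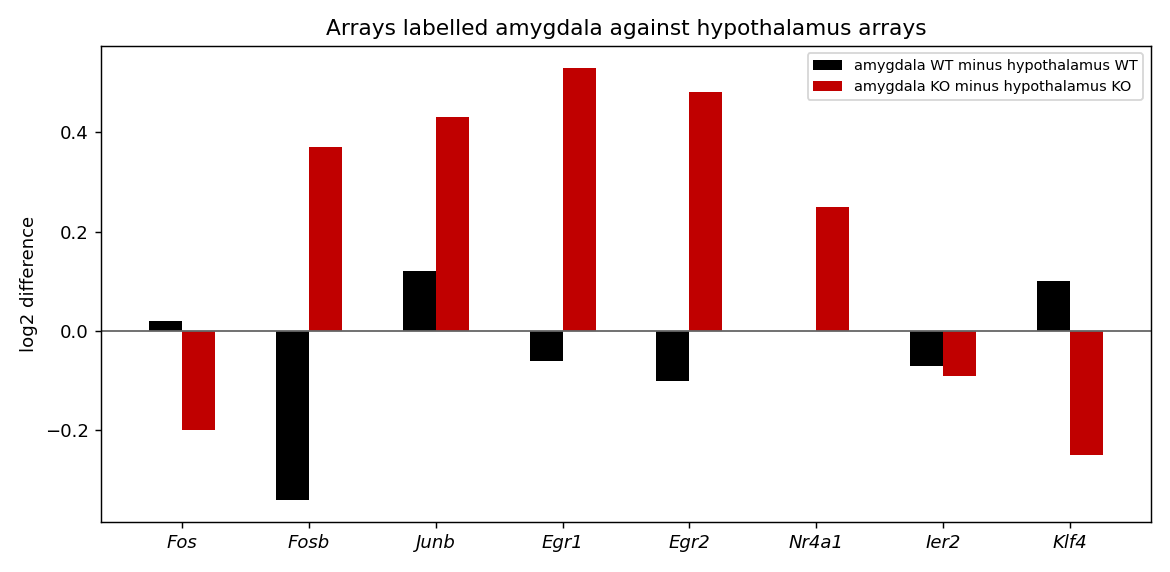
Log2 difference between the arrays labelled amygdala and hypothalamus (y axis) for each gene (x axis), in WT (black bars) and KO (red bars), 1 array per label. The WT bars stay within 0.12 of 0 apart from Fosb at -0.34, while the KO bars reach 0.53 for Egr1.

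The other genes of the activity response were described by lists. Of 21 tested members of 22 other immediate early transcription factors, 14 were lower and 7 higher, with a median of -0.03 (-0.06 without amygdala), and 0 passed the adjusted threshold. The lowest were Atf3 (-0.30), a stress-induced leucine zipper factor, Maff (-0.21) and Nfil3 (-0.19), and the highest were Egr3 (0.23), a relative of Egr1, and Jun (0.19), which pairs with Fos. By region Jun ran from 0.06 in prefrontal cortex to 0.50 in amygdala. Nr4a3, in this list, was well above background on too few arrays to be tested.

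Among 21 tested of 22 other immediate early regulators, such as phosphatases and secreted proteins, 18 were lower, with a median of -0.11 (-0.12 without amygdala) and 0 past the threshold. The lowest was Ccn1, a matrix protein induced through serum response factor, at -0.38 ± 0.084 (limma, adjusted p = 0.103) and lower in 6 of 6 regions, followed by Spry4 (-0.23), an inhibitor of growth factor signalling, and Btg2 (-0.22). The highest were Zfp36 (0.40), which promotes mRNA decay, and Sgk1 (0.09), a kinase. For Zfp36 the striatum pair stood at 2.15 and the other 5 pairs between -0.10 and 0.14, and for Spry4 the striatum pair stood at -1.46 and the others between -0.26 and 0.25.

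Of 11 tested of 12 synaptic effectors, 3 were lower and 8 higher, with a median of 0.09 (0.09 without amygdala) and 0 past the threshold. Ptgs2, the inducible cyclooxygenase (-0.23), Arc, which regulates receptor endocytosis at synapses (-0.22), and Plk2, a kinase (-0.18), were the lowest. Homer1, a postsynaptic scaffold (0.29), and Scg2, a granule protein (0.26), were the highest. The difference between this list and the 8 genes was not tested.

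Of 17 tested of 20 upstream regulators, 10 were lower, with a median of -0.05 (-0.07 without amygdala) and 0 past the threshold. Mef2c, an activity-dependent transcription factor (-0.40), Crtc2, a CREB coactivator (-0.26), and Rps6ka1, a kinase acting on CREB (-0.19), were lowest, and Crebbp, a CREB-binding coactivator (0.22), and Map2k1, a kinase upstream of ERK (0.20), highest. Of 9 partners and inhibitors, 4 were lower, with a median of 0.08 (0.03 without amygdala) and 0 past the threshold. These included the EGR corepressors Nab1 (-0.20) and Nab2 (-0.04), Jund (-0.09), and Rxrg (0.15), a partner of NR4A receptors; Jun was the highest.

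**Figure D4:**
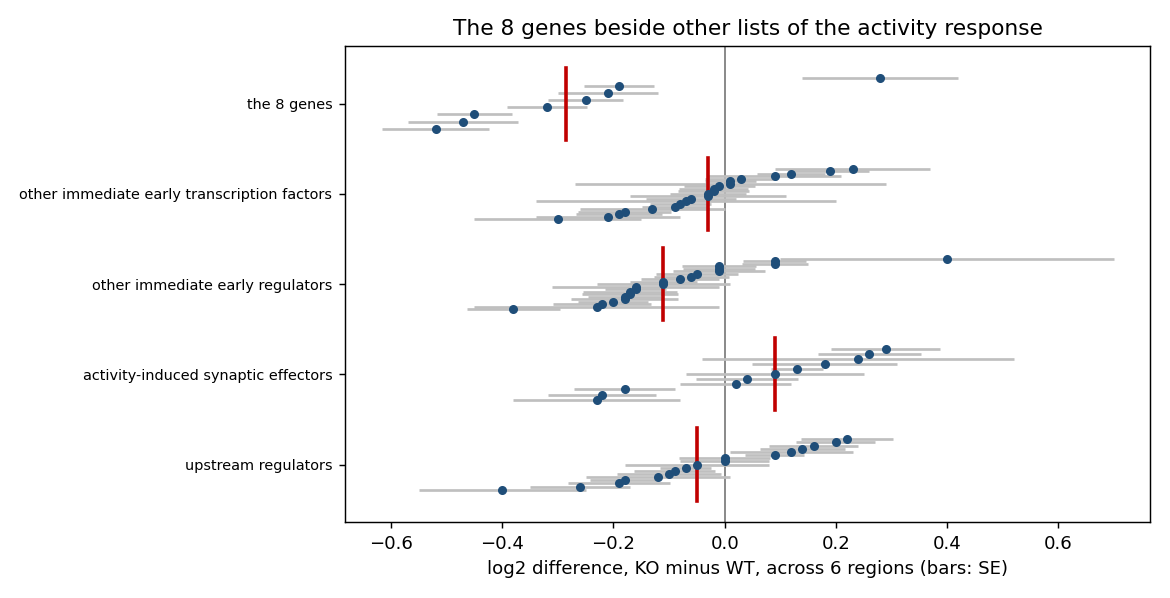
Log2 difference, KO minus WT, across 6 regions (x axis) for the 8 genes and the tested genes of 4 other lists (y axis); points are limma estimates, grey bars their standard errors, and red lines list medians. The red line of the 8 genes lies at -0.28, and those of the other 4 lists lie between -0.11 and 0.09.

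Markers of other cells were measured on the same arrays. All 10 tested meningeal fibroblast markers were lower in KO across regions, with a median of -0.40 (-0.30 without amygdala) and summed linear levels of 9.06 to 28.5 on WT and 9.77 to 22.7 on KO arrays. By region that median ran from -0.94 in hypothalamus and -0.93 in amygdala through -0.30 in olfactory bulb and -0.11 in hippocampus to 0.02 in prefrontal cortex and 0.12 in striatum. In the same order of regions the median of the 8 members was -0.32 in hypothalamus, -0.20 in amygdala, -0.40 in olfactory bulb, -0.22 in hippocampus, -0.36 in prefrontal cortex and -0.29 in striatum. Single meningeal fibroblast markers ran from -0.39 (Col1a1) to 0.30 (Fmod) in prefrontal cortex, and from -1.65 (Ogn) to -0.62 (Col1a2) in hypothalamus. Of 11 microglia markers 10 were at or above 0, with a median of 0.18 (0.15 without amygdala). At an unadjusted p under 0.05 in limma, 7 of the 11 were higher, beside 10% of all genes, and 0 were lower, beside 13.3%. Of 15 endothelium and pericyte markers 9 were lower, with a median of -0.05 (-0.06 without amygdala), and the 11 pan-neuronal genes had a median of 0.03 (0.00). The medians were -0.21 for 8 choroid plexus markers (0.19 without amygdala), -0.04 (-0.07) for 3 red blood cell markers, and 0.02 (0.03) for both 9 astrocyte and 9 oligodendrocyte markers. None of these markers passed the threshold, and their part in the members' values was not tested.

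Across the 12 arrays the members moved together to differing degrees. Over the 28 pairs of members, Pearson r ran from 0.075 (Fosb and Klf4) to 0.96 (Egr1 and Nr4a1), with a median of 0.60. Over the 10 arrays without amygdala it ran from -0.069, again for Fosb and Klf4, to 0.96, and that of Ier2 and Klf4 went from 0.15 to -0.042. Egr2 and Nr4a1 had an r of 0.91 (0.92 without amygdala). The mean of the 8 genes, each centred on its own mean, was 1.25 on olfactory bulb WT and 0.81 on olfactory bulb KO, and lowest on hypothalamus KO, at -0.86. Among 11797 named genes well above background on every array, those most like this mean were Ralb (r = 0.962), Csgalnact2 (0.962), Cdkn1a (0.960), Adarb1 (0.952), Pacc1 (0.952), Pparg (0.951), Igfbp7 (0.950) and Zbtb43 (0.947). Without amygdala the r of these 8 genes lay between 0.940 (Igfbp7) and 0.959 (Ralb). Their KO minus WT estimates lay nearer to 0 than the members' median, between -0.17 (Cdkn1a) and -0.04 (Csgalnact2 and Igfbp7). The 12 arrays share regions and slides, and these values are descriptions.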

How the data were processed

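RNA of 6 mouse brain regions from KO and WT mice was measured on 12 one-colour Agilent arrays, 1 per region and genotype, each a Cy3-labelled pool of 5 mice (400 ng RNA), per the labels. The deposited intensity values are scanner output of Feature Extraction 9.5.3.1, which per the file headers were background-subtracted and detrended, with no scaling from array to array. A further table from the authors holds each KO to WT ratio, deposited without a statement of its scaling; log2 of that ratio was used as an alternative.

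Control spots and outlier spots (61 to 143 per array) were left out, and 0 spots were saturated. Log2 of the processed signal minus the 75th percentile of the array was averaged over the spots of a probe. Accessions were matched to RefSeq genes (GRCm38.p6): 22951 of 41174 probes (55.7%) matched, giving 16358 named genes, and the other probes stay unnamed. A gene was represented by its probe of highest mean over the 12 arrays. Genes well above background on at least 6 arrays were tested with limma 3.58.1 in R 4.3.3, with region as a block for genotype and genotype as a covariate for regions, and Benjamini-Hochberg adjustment at 0.05. Errors beside estimates are standard errors, and the number of arrays limits the precision. Tests were first tried on simulated data. Within a region there was no test, only a 2-fold rule.

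The 8 genes and the gene lists were chosen with earlier results of these data known. In each other list of the activity response, the 3 lowest and 2 highest estimates are named, and the 8 genes most like the members' mean by Pearson r. Alternatives were normexp on the median and background signals (the mean signal was not used here) with an offset of 50, median and quantile scaling, other probe and background rules, a trended robust fit, the authors' ratios and each region left out. The fits by scan day and the fit without striatum arrays were added after seeing the data.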

Additional observations from a re-analysis of the deposited data

How the results depend on the processing

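The KO minus WT estimates of the 8 genes over 6 regions kept their direction in each of 17 alternatives (Fos -0.49 to -0.39, Egr2 -0.58 to -0.42, Nr4a1 -0.55 to -0.30, Fosb 0.18 to 0.38), and their adjusted p in limma ran from 0.0421 to 0.599. The members past the threshold numbered 4 with normexp, 1 with the trended robust fit and 2 with the authors' deposited ratios, against 0. Over all genes, 10 passed; the count was 719 with normexp, 16 with quantile normalization, 20 with genes well above background on all 12 arrays, 161 with the trended robust fit, 258 with the authors' ratios (135 higher), 0 and 1 in the regions of scan day 1 and day 2, and 1 to 5 with a region left out (lowest without amygdala, hippocampus or hypothalamus). Without amygdala, 1 passed; the count was 11, 5 and 14 with normexp, the all-12 filter and the trended fit, 2 with median scaling, 3 with every probe, 0 on scan day 2 and 1 to 1 with a region left out. For the amygdala pair against the others, 66 passed; the count was 426, 42, 121 and 220 with normexp, quantile, the all-12 filter and the trended fit, and 2 to 71 with a region left out. The members' median there was 0.31, moving to 0.49 with median scaling and 0.22 with quantile normalization, and 0.27 to 0.35 with a region left out. With the mean of all probes, Ier2 turned to -0.16 in that comparison and to 0.00 in striatum without amygdala. The causes were not tested. The region calls of the members numbered 12 to 14 with 1 array left out, and 11 to 14 without amygdala; Fos in hippocampus (-0.94 without hippocampus WT, -0.95 with normexp) and, without amygdala, Egr1 in olfactory bulb (0.90 with median scaling, 0.91 without olfactory bulb WT) then missed the 1-unit rule. The KO minus WT estimates are themselves paired, each region (and slide) giving 1 pair. The second Ier2 probe was dim, and each region and genotype had 1 array.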
